A study of Mus musculus with 2 samples.

Results

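The Wnt signaling genes described here are 50 genes, chosen by name out of the 24411 genes in the count tables: 16 Wnt ligands, 13 receptors and coreceptors, 9 cytoplasmic proteins, 4 TCF/LEF transcription factors, 4 secreted inhibitors and 4 planar cell polarity genes. They were measured by laser capture microdissection (LCM), in which a laser cuts chosen areas from a stained section, followed by bulk RNA-seq. The tissue was fresh frozen mouse brain at embryonic day 16.5, and the areas were the subventricular zone (abbreviated SVZ), a germinal layer next to the lateral ventricle, and the overlying cortex, into which newborn neurons migrate. There was 1 library from each area. The embryos came from timed matings and received no treatment that the sources used here name, and their strain and the number of embryos and sections behind each library are not given there.

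Wnt proteins are secreted, lipid-modified ligands. Bound to a Frizzled receptor and the coreceptors Lrp5 or Lrp6, they stop the complex of Axin, Apc and Gsk3b from marking beta-catenin for destruction, and beta-catenin then enters the nucleus and works with TCF/LEF factors. Other Wnt signals run without beta-catenin, through Celsr, Vangl and Prickle proteins that orient cells and guide axons. In the embryonic forebrain Wnt signals are known for patterning the dorsal telencephalon, for keeping progenitors dividing, for axon growth and for the ingrowth of blood vessels.

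Gene-assigned reads numbered 51435667 for SVZ and 22050693 for cortex, so that 1 read was worth 0.0194 CPM (reads of a gene per 1000000 gene-assigned reads) in SVZ and 0.0454 CPM in cortex. A count of 0 was taken to allow up to 3 reads, which is 0.0583 CPM in SVZ and 0.136 CPM in cortex. Ratios are SVZ CPM over cortex CPM on the log2 scale, and the intervals in parentheses are exact (Clopper-Pearson, 95%) for the reads behind them. They cover counting error only and treat each read as independent. Reads that PCR copied were not told apart from independent molecules, so the intervals and the floor of 3 reads can understate the counting error. No test between areas can be made from 1 library each. Of the 12738 genes with an average CPM of at least 1, 86.8% had an interval that left out equal CPM, so an interval away from 0 separates these libraries and not the areas in general.

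Cell type markers separated the libraries. All 6 radial glia markers were higher by 2-fold or more in SVZ, where their CPM summed to 6292 against 125 in cortex. The 6 neuron markers were all higher in cortex, with 7493 summed CPM against 2727 in SVZ. Markers of other tissues were present too. Those of the choroid plexus summed to 246 CPM in SVZ, nearly all of it Ttr, and to 0.907 CPM in cortex. Those of the ventral telencephalon summed to 123 CPM in SVZ and 75.7 CPM in cortex. Of the 6 ventral markers that reached 1 CPM, 3 were higher by 2-fold or more in SVZ and 3 lay within 2-fold. Whether such reads came from neighboring tissue or from cells inside the cut areas was not tested. Markers of microglia, the immune cells of the brain, summed to 52.5 CPM in SVZ and 5.85 CPM in cortex. Their part in the results below was not tested. In tissue pieces of this kind, fewer cells of a type and less RNA per cell cannot be told apart.

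Of the 50 genes, 34 reached a mean of 1 CPM and 16 did not, and 9 had no read in either library. Among the 34, 10 (29.4%) exceeded their cortex CPM 2-fold or more in SVZ, where 20.0% of all 12738 genes did, and 4 (11.8%) exceeded their SVZ CPM 2-fold or more in cortex, against 15.6% of all genes. Their median log2 ratio was 0.41 and that of all genes 0.11. Read against the shares of all genes, neither count is a result about the list as a whole, and the values below are given family by family. The genes higher in SVZ were Fzd1, Fzd2, Fzd7, Fzd8, Ctnnb1, Tcf7l1, Tcf7l2, Dkk3, Sfrp1 and Celsr1, and those higher in cortex were Wnt7b, Fzd4, Fzd9 and Apc.

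**Figure D1:**
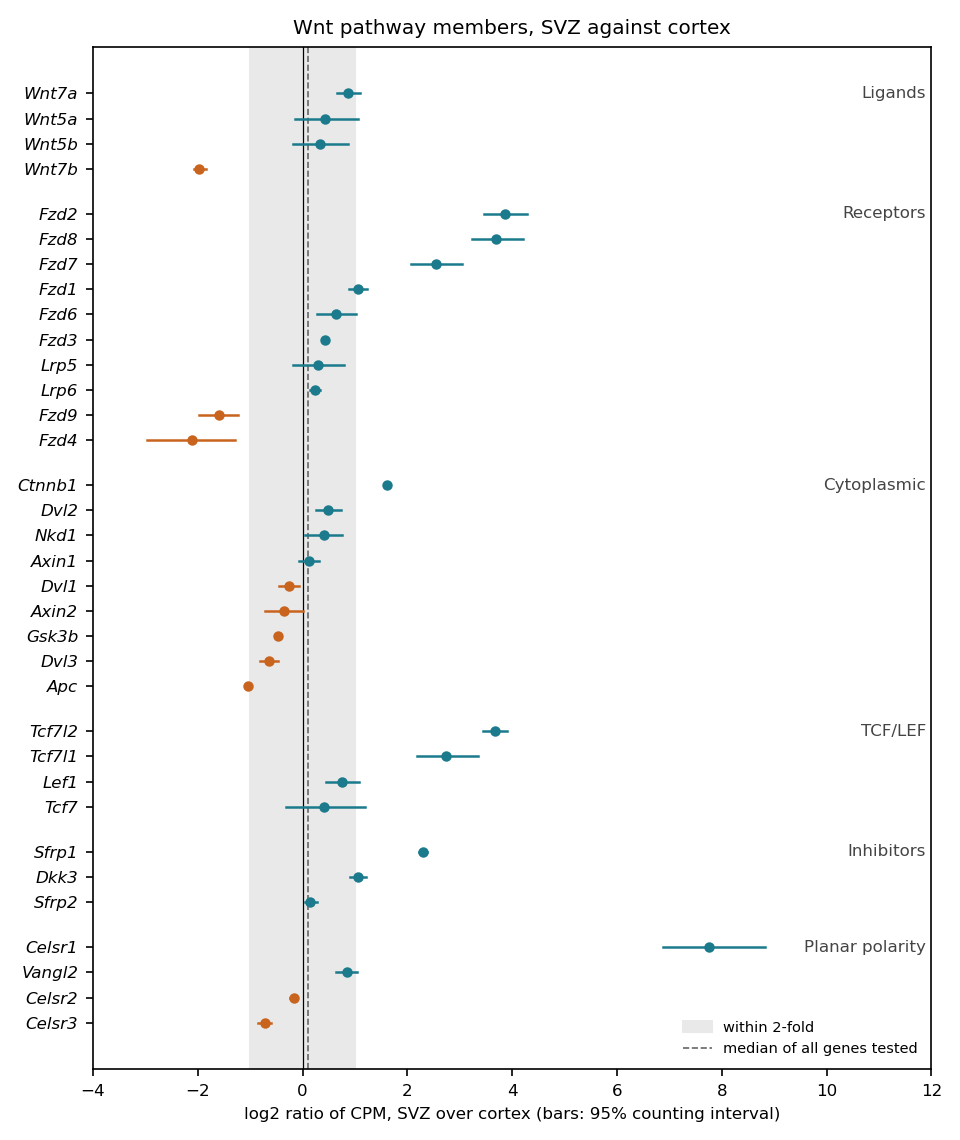
The SVZ/cortex CPM ratio on the log2 scale (x axis) is drawn for the 34 Wnt pathway genes with an average of at least 1 CPM, ordered by role, with 95% counting intervals as bars, 1 library per area, teal where SVZ was higher and orange where cortex was. Points right of the grey band, which spans 2-fold, are the 10 genes higher in SVZ, with Celsr1 at 7.76, and points left of it are the 4 genes higher in cortex.

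Most Wnt genes had 3 reads or fewer per library. Wnt1, Wnt2, Wnt3a, Wnt6, Wnt8b, Wnt10a, Wnt11 and Wnt16 had no read in either library, Wnt4 had 3 reads in cortex alone and Wnt9a 3 reads in SVZ alone. Several of these, such as Wnt3a and Wnt8b, are known from the cortical hem, the signaling center at the edge of the cortex. The 7 hem markers summed to 5.79 CPM in SVZ and 1.09 CPM in cortex, most of it Bmp7 with 216 and 22 reads. Bmp6, Msx2 and Rspo1 had 47, 13 and 12 reads in SVZ and none in cortex, and Msx1 had 9 and 2 reads. Lmx1a had 1 read in SVZ and Gdf7 none in either library. Nearly all ligand reads came from Wnt7a and Wnt7b, which are closely related in sequence and signal to neural progenitors and to brain endothelium. Together they held 88.1% of the ligand reads in SVZ (interval 86.6% to 89.4%) and 93.9% in cortex (92.7% to 94.9%).

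The Wnt7 genes lay on opposite sides. Wnt7a (GRCm38 chromosome 6, 91363981 to 91411363) had 896 reads in SVZ against 210 in cortex, or 17.4 and 9.52 CPM, a log2 SVZ/cortex ratio of 0.87 (0.65 to 1.09). Wnt7b (chromosome 15, 85535437 to 85582473) had 1000 and 1674 reads, or 19.4 and 75.9 CPM, a log2 SVZ/cortex ratio of -1.97 (-2.08 to -1.85). Wnt7a was thus 1.83-fold higher in SVZ, short of 2-fold, and Wnt7b was 3.90-fold higher in cortex. Of the Wnt7 reads, Wnt7a took 47.3% (45.0% to 49.5%) in SVZ and 11.1% (9.76% to 12.7%) in cortex. The ratio of Wnt7a to Wnt7b therefore differed 7.14-fold between the libraries, a value that no scaling of the libraries can change. Per kb of exon, Wnt7b was the most abundant ligand of cortex at 15.5 CPM per kb, followed by Wnt7a at 3.00. In the SVZ library Wnt7a stood at 5.49 and Wnt7b at 3.97 CPM per kb, but with the length of the longest transcript the values were 5.49 and 5.72, so their order there is undecided.

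The remaining ligands were low. Wnt5a, which mostly signals without beta-catenin, had 104 reads in SVZ against 33 in cortex, with a log2 SVZ/cortex ratio of 0.43 (-0.14 to 1.05). Wnt5b had 126 and 43 reads and a log2 SVZ/cortex ratio of 0.33 (-0.18 to 0.86). Neither difference was detectable at this depth. Wnt2b (8 and 29 reads) and Wnt3 (16 and 15 reads) did not reach a mean of 1 CPM. Their log2 ratios were -3.08 (-4.42 to -1.92) and -1.13 (-2.24 to -0.01), both on the cortex side. The meninges also make Wnt ligands, and 8 of their markers summed to 4.59 CPM in SVZ and 9.39 CPM in cortex. Foxd1 and Aldh1a2 had no read in either library. Among the 4 that reached a mean of 1 CPM, 3 were higher in cortex and 1 in SVZ. Their log2 SVZ/cortex ratios ran from -3.22 for Col3a1, with 17 and 68 reads, to 0.36 for Col1a2. The part of the meninges in the ligand values was not tested.

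Frizzleds, the receptors that bind Wnt proteins, differed in make-up between the libraries. Of the 10 genes, 4 were higher by 2-fold or more in SVZ, 2 were higher by 2-fold or more in cortex, Fzd3 and Fzd6 lay within 2-fold, and Fzd5 and Fzd10 did not reach a mean of 1 CPM. Of all genes tested, 20.0% were higher by that much in SVZ and 15.6% in cortex. Fzd2 (chromosome 11, 102604396 to 102608058) had 1794 reads in SVZ against 53 in cortex, or 34.9 and 2.40 CPM, a 14.5-fold difference with a log2 SVZ/cortex ratio of 3.86 (3.47 to 4.28). Fzd8 (chromosome 18, 9212163 to 9218136) had 1122 and 37 reads, or 21.8 and 1.68 CPM, a 13.0-fold difference with a log2 SVZ/cortex ratio of 3.70 (3.23 to 4.21), or 3.09 with a pseudocount of 1 CPM. Fzd7 (chromosome 1, 59482424 to 59486955) had 530 and 39 reads, 10.3 and 1.77 CPM, and a log2 SVZ/cortex ratio of 2.54 (2.07 to 3.05). All 3 were thus sparse in cortex, with 37 to 53 reads. Fzd1 (chromosome 5, 4753839 to 4758035) had 1620 and 333 reads, 31.5 and 15.1 CPM, and with a log2 SVZ/cortex ratio of 1.06 (0.89 to 1.23) it lay at the edge of 2-fold. Under TMM scaling, upper-quartile scaling and DESeq2 size factors its ratio was 0.96 to 0.97.

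On the cortex side stood Fzd9 and Fzd4. Fzd9 (chromosome 5, 135248938 to 135251230) had 107 reads in SVZ against 139 in cortex, which is 2.08 and 6.30 CPM, a log2 SVZ/cortex ratio of -1.60 (-1.98 to -1.23). Fzd4 (chromosome 7, 89404355 to 89413134), a receptor known from blood vessels, had 20 and 37 reads, which is 0.389 and 1.68 CPM, a log2 SVZ/cortex ratio of -2.11 (-2.97 to -1.29). It reached the minimum of 1 CPM only through the cortex library, so that it had to be the higher there, and with a pseudocount of 1 CPM its ratio was -0.95. Endothelial markers did not share a direction, since 4 of 7 were higher in SVZ and 3 in cortex, with a median log2 ratio of 0.26. They ran from -1.26 for Flt1 to 3.67 for Slco1c1, and their part in the Fzd4 value was not tested.

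Fzd3, a receptor with a known role in axon tracts, was the most abundant Frizzled in each library. It had 18233 reads in SVZ against 5839 in cortex, 354 and 265 CPM, a log2 SVZ/cortex ratio of 0.42 (0.38 to 0.46). Fzd6, its closest relative, had 291 and 80 reads and a log2 SVZ/cortex ratio of 0.64 (0.28 to 1.02). Fzd3 took 76.8% of the Frizzled reads in SVZ (76.3% to 77.4%) and 89.0% in cortex (88.2% to 89.7%), while Fzd2, Fzd7 and Fzd8 held 7.56%, 2.23% and 4.73% in SVZ and 0.808%, 0.594% and 0.564% in cortex. Per kb of exon the order in SVZ was Fzd3 at 27.7, Fzd2 at 9.52, Fzd1 at 7.50 and Fzd8 at 3.65 CPM per kb. In the cortex library it was Fzd3 at 20.7, Fzd1 at 3.60 and Fzd9 at 2.75, with all others under 1 CPM per kb. The order after Fzd3 was therefore not the same in the libraries. Fzd5 had 13 and 4 reads with a log2 SVZ/cortex ratio of 0.48 (-1.22 to 2.55), and Fzd10 had none.

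**Figure D2:**
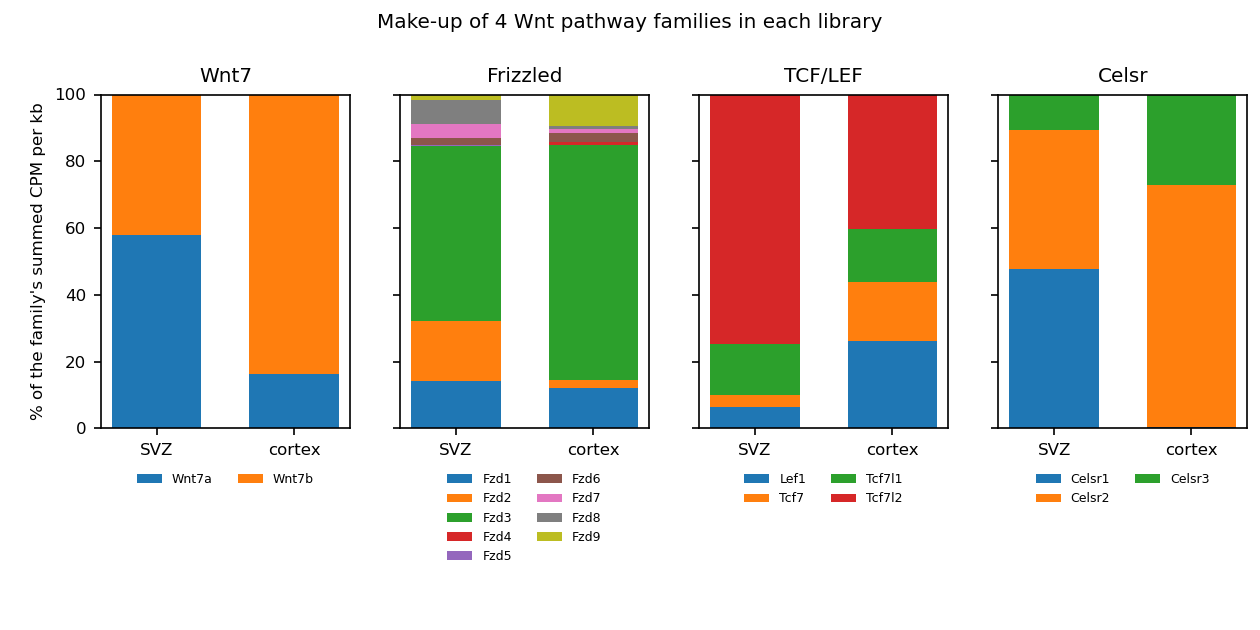
Stacked bars give the share of each gene in its family's summed CPM per kb of exon (y axis, %), for the SVZ and the cortex library, 1 library each. Wnt7a makes up 58.0% of the Wnt7 pair in SVZ and 16.2% in cortex, Fzd2 18.0% and 2.23% of the Frizzleds, Tcf7l2 74.6% and 40.1% of the TCF/LEF factors, and Celsr1 47.7% and 0.340% of the Celsr genes.

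The Lrp coreceptors lay within 2-fold. Lrp6, which passes the signal on together with a Frizzled, had 3227 reads in SVZ against 1177 in cortex, 62.7 and 53.4 CPM, a log2 SVZ/cortex ratio of 0.23 (0.14 to 0.33). Lrp5 had 140 and 49 reads and a log2 SVZ/cortex ratio of 0.29 (-0.19 to 0.79), so a difference was not detectable. Lrp6 was far above Lrp5 per kb of exon, at 4.59 against 0.280 CPM per kb in SVZ and 3.90 against 0.228 in cortex. Lgr5, a receptor for R-spondins and a known stem cell marker in gut, had no read in SVZ and 26 in cortex. With its count of 0 set at 3 reads, it was 20.2-fold higher in cortex, at a level of 1.18 CPM there. The upper end of its counting interval was a log2 SVZ/cortex ratio of -3.94.

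In the cytoplasm, 7 of the 9 genes lay within 2-fold and the exceptions pointed in opposite directions. Ctnnb1 (chromosome 9, 120929216 to 120960507), which encodes beta-catenin, a protein of cell junctions as well as of the Wnt pathway, had 42141 reads in SVZ against 5919 in cortex, or 819 and 268 CPM, a log2 SVZ/cortex ratio of 1.61 (1.57 to 1.65). Apc (chromosome 18, 34220924 to 34322552), a scaffold of the destruction complex that also binds microtubules, had 6893 and 6066 reads, or 134 and 275 CPM, a log2 SVZ/cortex ratio of -1.04 (-1.09 to -0.99). The ratio of Ctnnb1 to Apc thus differed 6.27-fold between the libraries. Gsk3b, the kinase of that complex, had 21333 and 12688 reads, 415 and 575 CPM, and a log2 SVZ/cortex ratio of -0.47 (-0.50 to -0.44). For Axin1, another scaffold of the complex, a difference was not detectable, with 845 and 332 reads and a log2 SVZ/cortex ratio of 0.13 (-0.06 to 0.31). Per kb of exon Ctnnb1 was the most abundant of all 50 genes in SVZ, at 158 CPM per kb. In the cortex library Gsk3b stood at 58.5 and Ctnnb1 at 51.7 CPM per kb, an order that turned to 69.3 and 74.1 with the longest transcript.

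Dishevelled proteins carry the signal from Frizzled receptors into the cell, and all 3 genes lay within 2-fold. Dvl1 had 692 reads in SVZ against 355 in cortex, with a log2 SVZ/cortex ratio of -0.26 (-0.45 to -0.07). Dvl2 had 598 and 183 reads and a log2 SVZ/cortex ratio of 0.49 (0.25 to 0.73), and Dvl3 had 689 and 461 reads and a log2 SVZ/cortex ratio of -0.64 (-0.81 to -0.47). Their shares were not the same: Dvl3 took 34.8% of the Dvl reads in SVZ (32.7% to 37.0%) and 46.1% in cortex (43.0% to 49.3%). Dvl2 took 30.2% in SVZ (28.2% to 32.3%) and 18.3% in cortex (16.0% to 20.9%), while Dvl1 held 35.0% and 35.5%. Axin2 and Nkd1 are feedback inhibitors, which beta-catenin signaling itself is known to switch on. Axin2 had 180 and 99 reads and a log2 SVZ/cortex ratio of -0.36 (-0.72 to 0.01), and Nkd1 had 267 and 87 reads and a log2 SVZ/cortex ratio of 0.40 (0.04 to 0.76). Both were low, between 3.50 and 5.19 CPM in either library, and within 2-fold.

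Among the transcription factors, Tcf7l2 and Tcf7l1 were higher in SVZ and Lef1 and Tcf7 lay within 2-fold. Tcf7l2 (chromosome 19, 55741820 to 55933654) had 4708 reads in SVZ against 158 in cortex, 91.5 and 7.17 CPM, a 12.8-fold difference with a log2 SVZ/cortex ratio of 3.68 (3.45 to 3.91). Tcf7l1 (chromosome 6, 72626378 to 72789254), known mainly as a repressor, had 437 and 28 reads, 8.50 and 1.27 CPM, a log2 SVZ/cortex ratio of 2.74 (2.19 to 3.35), or 2.06 with a pseudocount of 1 CPM. Lef1, an activator and itself a known target of the pathway, had 406 and 103 reads, 7.89 and 4.67 CPM, a log2 SVZ/cortex ratio of 0.76 (0.44 to 1.08). Tcf7 had 65 and 21 reads and a log2 SVZ/cortex ratio of 0.41 (-0.32 to 1.19). As a family these genes summed to 109 CPM in SVZ and 14.1 CPM in cortex, from 5616 and 310 reads. Tcf7l2 held 83.8% of the reads (82.8% to 84.8%) in SVZ and 51.0% (45.3% to 56.7%) in cortex, where Lef1 held 33.2% (28.0% to 38.8%).

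TCF/LEF factors bind short A/T-ended sequences, and the promoter windows of the members were searched for them. The windows were those of RefSeq on GRCm38.p6, 300 bases each, with 250 before the start site. The heptamers were CTTTGAA or CTTTGAT or CTTTGTA or CTTTGTT on either strand, all of which also fit the core sequence of SOX factors. A window was found for 35 of the 50 genes. Of their 44 windows 7 held a heptamer (15.9%), against 5544 of all 32851 windows (16.9%). Fzd7 and Tcf7l2 are shown because they are the genes higher by 2-fold or more in SVZ whose window held a match, and Lef1 because it is a known target, with the heptamer in capitals and read 5′ to 3′ on the strand of the gene. The Fzd7 stretch (chr1:59481992-59482048, plus strand) lay before the annotated gene, whereas those of Lef1 (chr3:131156122-131156178, plus strand) and Tcf7l2 (chr19:55895282-55895320, plus strand) belonged to start sites inside the gene and were intronic in GENCODE M21.
Fzd7: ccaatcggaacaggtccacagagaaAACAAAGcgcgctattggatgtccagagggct
Lef1: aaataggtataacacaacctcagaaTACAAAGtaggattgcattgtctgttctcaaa
Tcf7l2: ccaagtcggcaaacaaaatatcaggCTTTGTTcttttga
The first base of the match lay 130 bases before the start site in Fzd7, 147 in Lef1 and 14 in Tcf7l2. A match is a description of letters and does not show that a factor binds there, and the members held such matches about as often as promoters in general.

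Secreted inhibitors bind Wnt proteins or block their coreceptors, and Sfrp1 and Dkk3 were higher in SVZ. Sfrp1 (chromosome 8, 23411502 to 23449632), which binds Wnt proteins outside the cell, had 19531 reads in SVZ against 1703 in cortex, 380 and 77.2 CPM, a 4.92-fold difference with a log2 SVZ/cortex ratio of 2.30 (2.23 to 2.37). Its relative Sfrp2 had 2401 and 925 reads, 46.7 and 41.9 CPM, a log2 SVZ/cortex ratio of 0.15 (0.04 to 0.27). Sfrp1 was thus 89.1% of the reads of this pair in SVZ (88.6% to 89.5%) and 64.8% in cortex (62.9% to 66.6%). Dkk3 (chromosome 7, 112116017 to 112159057), a divergent Dickkopf, had 1932 and 397 reads, 37.6 and 18.0 CPM, and a log2 SVZ/cortex ratio of 1.06 (0.90 to 1.22), which was 0.96 to 0.97 under TMM, upper-quartile and DESeq2 scaling. Dkk1, which blocks Lrp5 and Lrp6, had no read in SVZ and 11 in cortex. With the 0 set at 3 reads it was 8.55-fold higher in cortex, from a level of 0.499 CPM. The upper end of its counting interval was a log2 SVZ/cortex ratio of -2.55.

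Planar cell polarity genes held the largest difference of all 50 genes. Celsr1 (chromosome 15, 85898929 to 86033777), an atypical cadherin that orients cells within an epithelium, had 5047 reads in SVZ against 10 in cortex, 98.1 and 0.454 CPM, a 216-fold difference with a log2 SVZ/cortex ratio of 7.76 (6.88 to 8.82). With a pseudocount of 1 CPM the log2 ratio was 6.09. Without it, only 33 of the 12738 genes, itself included, had a ratio as high. Its relatives lay within 2-fold. Celsr2 had 4626 and 2233 reads and a log2 SVZ/cortex ratio of -0.17 (-0.24 to -0.10), and Celsr3, known for its role in axon guidance, had 1227 and 869 reads and a log2 SVZ/cortex ratio of -0.72 (-0.85 to -0.60). Celsr1 therefore made up 46.3% of the Celsr reads in SVZ (45.4% to 47.2%) and 0.321% in cortex (0.154% to 0.590%). Vangl2, the membrane partner of Celsr proteins, had 1079 and 259 reads, and a log2 SVZ/cortex ratio of 0.84 (0.64 to 1.04), within 2-fold.

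**Figure D3:**
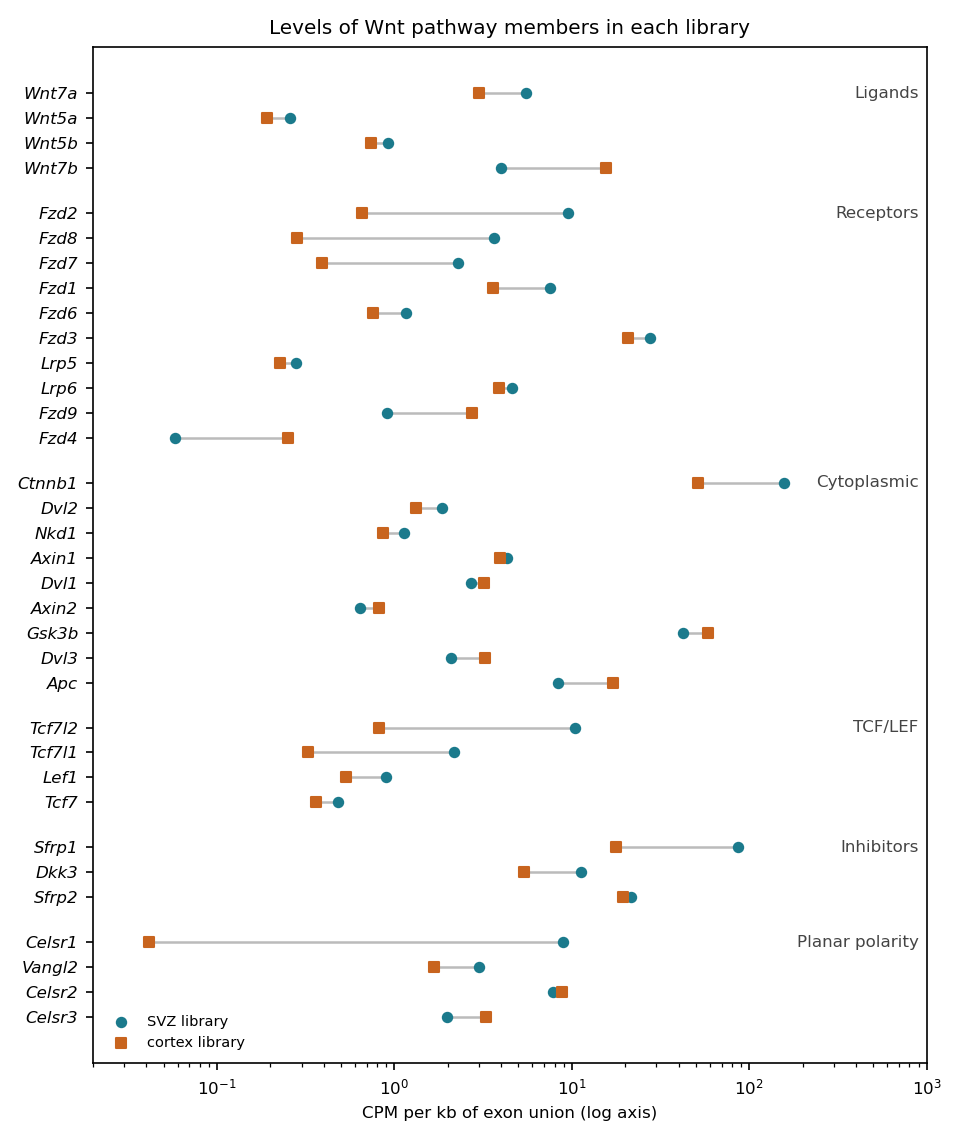
Levels of the 34 genes in CPM per kb of exon (x axis, log scale) are drawn for the SVZ library (circles) and the cortex library (squares), 1 library each, ordered by role. Celsr1 spans 0.0412 to 8.91 CPM per kb, the widest distance, while Sfrp2, Axin1 and Celsr2 nearly overlap.

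To place the members in the wider pathway, 117 further Wnt pathway genes were counted in the same way. Of these, 88 reached a mean of 1 CPM, and 21 (23.9%) were higher by 2-fold or more in SVZ, where 20.0% of all genes were. A further 20 (22.7%) were higher by 2-fold or more in cortex, against 15.6% of all genes, and the median log2 ratio was 0.08. The genes for making and releasing Wnt proteins lay within 2-fold. Porcn, the enzyme that attaches the lipid, had 752 and 423 reads and a log2 SVZ/cortex ratio of -0.39 (-0.57 to -0.22), and Wls, the carrier to the cell surface, had 889 and 247 reads and a log2 SVZ/cortex ratio of 0.63 (0.42 to 0.84).

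R-spondins are secreted proteins that strengthen Wnt signals by protecting the receptors from turnover. Those that reached a mean of 1 CPM, Rspo3 and Rspo2, were higher in cortex. Rspo3 had 437 reads in SVZ against 2014 in cortex, 8.50 and 91.3 CPM, a 10.8-fold difference with a log2 SVZ/cortex ratio of -3.43 (-3.58 to -3.28). Rspo2 had 12 and 150 reads and a log2 SVZ/cortex ratio of -4.87 (-5.85 to -4.02). Rspo1 did not reach a mean of 1 CPM. It had 12 and 0 reads and was 1.71-fold higher in SVZ with the 0 set at 3 reads. The lower end of its counting interval was a log2 SVZ/cortex ratio of 0.25. Of the coreceptors through which Wnt7 proteins act on endothelium, Reck had 343 and 55 reads and a log2 SVZ/cortex ratio of 1.42 (1.00 to 1.86), and Adgra2 2203 and 714 reads and a log2 SVZ/cortex ratio of 0.40 (0.28 to 0.53). Ror2, a receptor for Wnt5a, had 76 and 73 reads and a log2 SVZ/cortex ratio of -1.16 (-1.65 to -0.68). Ror1, also under a mean of 1 CPM, had 24 and 0 reads and was 3.43-fold higher in SVZ with the 0 set at 3 reads. The lower end of its counting interval was a log2 SVZ/cortex ratio of 1.37.

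Other planar cell polarity genes also split. Prickle1 and Prickle2, cytoplasmic partners of Vangl2, were higher in cortex, with 244 and 1636 reads and a log2 SVZ/cortex ratio of -3.97 (-4.17 to -3.77) for Prickle1, and 175 and 827 reads and a log2 SVZ/cortex ratio of -3.46 (-3.71 to -3.23) for Prickle2. Ankrd6, a cytoplasmic protein of the same system, had 6103 and 414 reads and a log2 SVZ/cortex ratio of 2.66 (2.52 to 2.81). Fat1, a giant cadherin, had 1753 and 104 reads and a log2 SVZ/cortex ratio of 2.85 (2.57 to 3.15). Of the 15 planar cell polarity genes outside the members that reached a mean of 1 CPM, 6 were higher by 2-fold or more in SVZ. Another 3 were that much higher in cortex. The shares of all genes tested were 20.0% for SVZ and 15.6% for cortex. The remaining genes with an average of at least 10 CPM and at least 4-fold apart included Gpc6 and Tle4. Emx2, Sp8, Ccnd1, Jun and Myc, which also passed both limits, are given further below. Gpc6, a glypican of the cell surface, had 4346 and 232 reads with a log2 SVZ/cortex ratio of 3.01 (2.81 to 3.20). Tle4, a corepressor that TCF/LEF factors recruit, had 1433 and 5032 reads with a log2 SVZ/cortex ratio of -3.03 (-3.12 to -2.95).

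**Figure D4:**
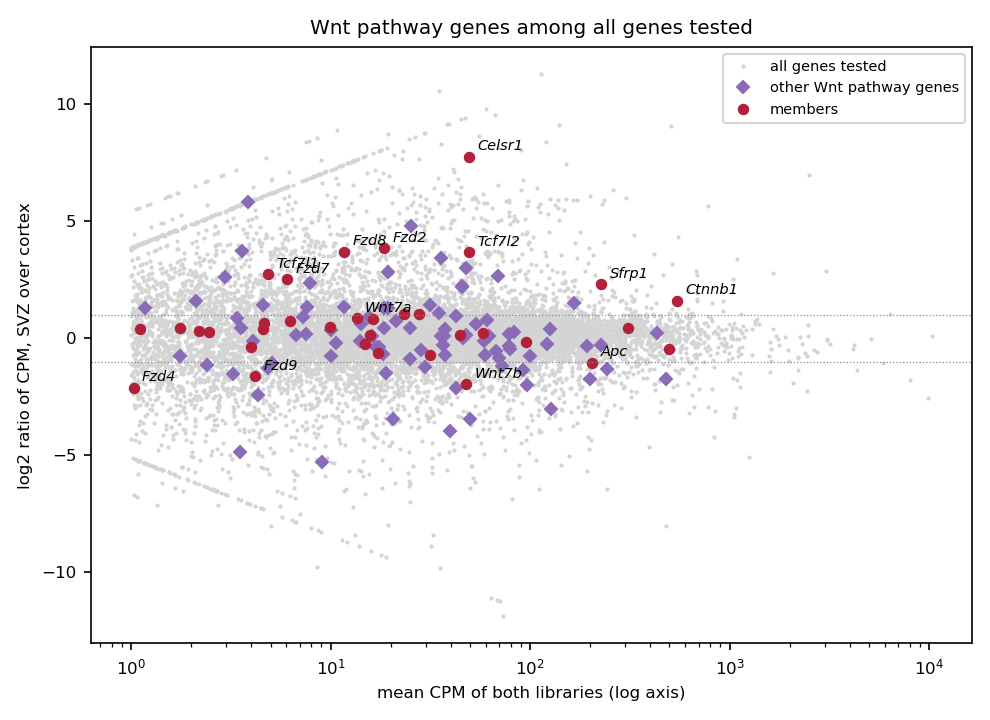
The SVZ/cortex CPM ratio on the log2 scale (y axis) is plotted against the mean CPM of both libraries (x axis, log scale) for all 12738 genes tested (grey), the 88 other Wnt pathway genes (diamonds) and the 34 members (circles), with dotted lines at 2-fold. The members spread over the range of all genes, with Celsr1 near its upper edge, and the straight grey edges are genes with 0 reads in 1 library, set at a floor of 3 reads.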

How the data were processed

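Per the study's methods, adapters were removed with cutadapt 4.1 and read 1 was mapped to mm10 (GRCm38) with STAR 2.7.9a, which counted reads per gene. The authors deposited raw counts, 1 unstranded and 2 stranded columns per library, with no normalization. Reads that map to several places or overlap more than 1 gene are left out of these counts. A merged table that holds the authors' own fold changes was not used.

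CPM was computed on gene-assigned reads, without the 4 lines of unassigned reads. Genes with an average of at least 1 CPM were compared, and 2-fold was the threshold. A count of 0 was set at 3 reads. Levels of different genes were compared per kb of the union of exons (GENCODE M21, matched by symbol for all 50 genes). The members and gene lists were chosen with earlier results of these data known. All 50 members are named. Of the other pathway genes, those with an average of at least 10 CPM and at least 4-fold apart are named, as are Porcn, Wls, Rspo1, Rspo2, Rspo3, Ror1, Ror2, Reck and Adgra2 whatever their values. Nkd2, Lgr4, Sostdc1, Sfrp4 and Apcdd1 were named after their values were seen. Alternatives were TMM or upper-quartile factors from edgeR 4.0.16, size factors from DESeq2 1.42.0, stranded sums, thinning, a pseudocount, other minimums and folds, and the longest transcript. R 4.3.3, Python 3.11.15 and scipy 1.17.1 were used, and the code was tested on simulated data.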

Additional observations from a re-analysis of the deposited data

How the results depend on the processing

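No paired analysis was possible because there was only 1 library of each area, so none could be left out either. Over 6 alternatives (TMM, upper-quartile and DESeq2 scaling, the stranded sum, the SVZ library thinned to the cortex total and a pseudocount of 1 CPM) none of the 204 recomputed ratios of the 34 genes changed its sign, and 179 stayed within the counting interval. The 3 scalings moved the median of all genes by -0.093 to -0.099, which took Fzd1 and Dkk3 under 2-fold. This left 8 of 34 members higher by 2-fold or more in SVZ, where 18.2% to 18.3% of all genes were. With a pseudocount Celsr1 moved to 6.09, Fzd8 to 3.09, Tcf7l1 to 2.06 and Fzd4 to -0.95. The stranded sum added over 10 reads to 2 members, Dvl1 and Tcf7l1.

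The 4 members higher in cortex became 8 of 39 with no minimum beyond 3 reads (18.2% of all genes), 2 of 21 at an average of at least 10 CPM (12.3%) and 1 of 34 at 4-fold (7.01%), as these settings test other genes or sizes. Of the other pathway genes, 21 of 88 higher in SVZ became 13 of 66 at an average of at least 10 CPM (14.9% of all genes) and 11 of 88 at 4-fold (10.2%), and 20 of 88 higher in cortex became 13 of 66 (12.3%) and 8 of 88 (7.01%). With the longest transcript in place of the exon union, 197 of 204 pairs of members within a role kept their order. Celsr1, Fzd2, Fzd7, Fzd8, Tcf7l1, Tcf7l2 and Sfrp1 were higher by 4-fold or more in SVZ. Of the 34 members that reached 1 CPM, only Fzd4 was higher by 4-fold or more in cortex, where it had 37 reads. Wnt7b, at -1.97 with CPM, also passed 4-fold under the 3 scalings, at -2.06.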

Other observations

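Genes that beta-catenin and TCF/LEF factors are known to regulate in other settings lay on both sides. Of 15 such genes listed besides the members, 9 reached a mean of 1 CPM, 4 were higher by 2-fold or more in SVZ and 4 higher by 2-fold or more in cortex. Of all genes tested, 20.0% were that much higher in SVZ and 15.6% in cortex. Emx2, a patterning factor of the dorsal telencephalon, had 2498 reads in SVZ against 39 in cortex, a log2 SVZ/cortex ratio of 4.78 (4.32 to 5.27). Sp8 had 3362 and 133 reads and a log2 SVZ/cortex ratio of 3.44 (3.19 to 3.70). Ccnd1, which encodes the G1 cyclin D1 and was 4.66-fold higher in SVZ, had 3861 and 355 reads, and Jun had 3854 and 364 reads with a log2 SVZ/cortex ratio of 2.18 (2.03 to 2.34). Myc, often named together with Ccnd1 as a target, went the other way, with 817 and 1522 reads and 4.35-fold higher CPM in cortex. All 5 proliferation markers were higher by 2-fold or more in SVZ, where they summed to 1407 CPM against 110, and their part in the Ccnd1 value was not tested.

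The feedback inhibitors Nkd1 and Nkd2 differed in distribution, a comparison chosen after the values were seen. Nkd1 was within 2-fold, whereas Nkd2 had 23 reads in SVZ against 389 in cortex, 0.447 and 17.6 CPM, a log2 SVZ/cortex ratio of -5.30 (-5.98 to -4.70). Lgr4, a receptor for R-spondins, had 70 and 160 reads and was 5.33-fold higher in cortex, on the same side as Rspo2, Rspo3 and Lgr5. Among secreted or membrane inhibitors outside the members, Sostdc1 had 261 and 18 reads with a log2 SVZ/cortex ratio of 2.64 (1.95 to 3.41), Sfrp4 66 and 0 reads, and Apcdd1 509 and 619 reads with a log2 SVZ/cortex ratio of -1.50 (-1.68 to -1.33). These genes were likewise named after their values were seen.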
